A study of Mus musculus with 11 samples.

Results

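The genes described here encode the axoneme of motile cilia and, in the same symbol families, a few proteins that work elsewhere. Members were all symbols of the count table that begin with Dnah, Dnahc, Dnaic, Rsph, Tekt, Spag, Spef or Drc and a digit, together with Foxj1, Hydin, Dnali1, Ccdc39, Ccdc40 and Ccdc153, provided that they held at least 10 counts over the 11 libraries. Of 42 symbols that matched, 40 passed this minimum, among 17557 genes that did so in the whole table. Spag11a and Spag11b fell below it. The rule uses no measured difference between genotypes.

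RNA was sequenced in bulk from mouse tissue labelled cerebellar hemisphere, from untreated littermates of both sexes. The background is C57BL/6J;129 in the labels and C57BL/6 with 129/SvEv in the methods, with an age given as postnatal day 30 in one label and 32 in another. The 3 control mice are labelled as control, and as floxed control in the table. The methods describe them as NfascFx/Fx and AnkGFx/Fx, floxed alleles of Neurofascin and of Ankyrin G (gene symbol Ank3), and also as having either or both floxed genes with no Cre, while another passage writes their genotype with Pcp2-Cre, so which alleles each control carried is uncertain. The 3 NFKO mice were Pcp2-Cre with NfascFx/Fx, the 2 AnkGKO mice were Pcp2-Cre with AnkGFx/Fx, and the 3 DKO mice were Pcp2-Cre with both floxed genes. The methods count 3 AnkGKO mice, and 2 libraries were analysed here. Pcp2-Cre is used to delete genes in Purkinje cells, and in which cells of these samples it acted was not tested.

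A motile cilium beats because dynein motors slide the doublet microtubules of its axoneme past each other. The outer arms hold one set of dynein heavy chains and the inner arms another, while radial spokes, the central apparatus and the nexin links keep the sliding in register and turn it into a bend. In the brain and the spinal cord such cilia stand on ependymal cells, which line the ventricles and the central canal and move cerebrospinal fluid, and FOXJ1 is the transcription factor that switches on the genes of motile cilia. In bulk RNA, fewer ciliated cells and less RNA per ciliated cell cannot be told apart.

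The libraries held 38890851 to 55822361 counts on genes. Ank3 lay between 353 and 407 CPM (counts scaled to a common library size by TMM) in control and NFKO and between 156 and 200 CPM in AnkGKO and DKO, whereas Nfasc overlapped between NFKO (622 to 701 CPM) and control (661 to 718 CPM). In DKO Nfasc was below every control library, at 559 to 606 CPM, and in AnkGKO it was at 717 and 953 CPM. The lower Ank3 was seen in libraries that had hardly any Pcp2. Markers of the labelled tissue were low: Pcp2, which defines Purkinje cells, was at 26.3 and 28.3 CPM in control replicate 1 and NFKO replicate 1 and at 0.093 to 2.14 CPM in the other 9 libraries, while 11 Hox genes of the caudal neural tube summed to 389 to 608 CPM. Skeletal muscle genes summed to 515 CPM in NFKO replicate 2 and 230 CPM in DKO replicate 2, against 4.84 to 92.9 CPM in the other 9. The samples were labelled as biological replicates.

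The promoters of 6 members that the results below turn on are shown first. By genotype mean, 3 of these genes stood highest in NFKO and 3 lowest in DKO. The sequences are RefSeq promoter windows of 250 bases before the start of transcription, kept to the longest stretch outside the exons that GENCODE gives the gene itself and placed on GRCm39 by exact match. Dnahc7b (GRCm39 symbol Dnah7b) is at chr1:46105763-46105897, Dnahc8 (Dnah8) at chr17:30843078-30843327, Ccdc153 at chr9:44151724-44151972, Dnahc5 (Dnah5) at chr15:28203662-28203897 and Spag17 at chr3:99792483-99792669, all on the plus strand, and Dnahc11 (Dnah11) at chr12:118162779-118163028 on the minus strand. Each is written 5′ to 3′, and capitals mark GTTGCC, a half-site of the X-box that RFX factors bind upstream of cilium genes.
Dnahc7b: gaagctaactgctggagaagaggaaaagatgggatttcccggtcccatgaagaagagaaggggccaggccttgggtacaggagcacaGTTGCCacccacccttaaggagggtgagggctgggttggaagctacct
Dnahc8: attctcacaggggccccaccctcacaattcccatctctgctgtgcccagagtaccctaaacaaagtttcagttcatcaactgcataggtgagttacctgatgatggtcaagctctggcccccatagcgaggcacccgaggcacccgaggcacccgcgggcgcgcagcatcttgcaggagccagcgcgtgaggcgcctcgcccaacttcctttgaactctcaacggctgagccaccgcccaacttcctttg
Ccdc153: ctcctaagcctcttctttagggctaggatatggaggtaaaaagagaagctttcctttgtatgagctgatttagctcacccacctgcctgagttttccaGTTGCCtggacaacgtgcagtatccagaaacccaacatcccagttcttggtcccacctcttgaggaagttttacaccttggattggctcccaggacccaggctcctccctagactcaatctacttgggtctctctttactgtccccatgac
Dnahc5: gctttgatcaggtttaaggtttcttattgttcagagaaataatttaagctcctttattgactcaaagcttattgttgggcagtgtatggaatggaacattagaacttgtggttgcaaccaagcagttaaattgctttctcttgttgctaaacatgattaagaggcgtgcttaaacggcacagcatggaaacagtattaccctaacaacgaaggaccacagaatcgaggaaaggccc
Spag17: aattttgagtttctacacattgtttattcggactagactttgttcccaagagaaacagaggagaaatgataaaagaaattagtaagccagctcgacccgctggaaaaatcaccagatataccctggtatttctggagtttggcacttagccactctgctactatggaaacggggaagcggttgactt
Dnahc11: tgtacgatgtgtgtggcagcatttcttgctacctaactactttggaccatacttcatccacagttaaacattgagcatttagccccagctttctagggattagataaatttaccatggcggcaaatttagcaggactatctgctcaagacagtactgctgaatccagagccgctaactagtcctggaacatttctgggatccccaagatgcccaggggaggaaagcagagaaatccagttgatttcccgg

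A RefSeq promoter was found for 35 of the 40 members. GTTGCC, searched on both strands, occurred in 8 of them (22.9%) and in 10.5% of all 27025 promoter windows, and the 8 genes were Ccdc153, Dnahc10, Dnahc7b, Dnaic2, Hydin, Spag16, Tekt1 and Tekt2. The full palindromic X-box of 14 letters was in 0 of the 35 and in 0.111% of all windows. A forkhead core, TGTTTAC, was in Dnahc17 and Tekt3, that is in 5.71% of member promoters and 3.09% of all. Of the 6 windows shown, those of Dnahc7b and Ccdc153 hold 1 half-site each and those of Dnahc8, Dnahc5, Spag17 and Dnahc11 hold none. The Dnahc8 window occurs at 2 places on chromosome 17 that lie 2582 bases apart, and 154 of its bases are exon of the antisense gene 1700097N02Rik. The Dnahc7b window begins 288 bases inside the gene as GENCODE annotates it, since the RefSeq start lies downstream of the GENCODE start, and 2 of its bases are exon of Gm70990. In the Spag17 window 41 bases are exon of Gm66321. The other 3 windows hold no exon base of another gene.

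Most of the group was at a low level. Mean levels over all libraries were below 1 CPM for 5 members, between 1 and 10 CPM for 29 and at or above 10 CPM for 6, where 3 counts equal 0.0537 to 0.0771 CPM. Foxj1, the one regulator of ciliogenesis among the members, was at 41.0 to 49.4 CPM in control, 38.2 to 40.9 CPM in NFKO, 41.9 and 54.0 CPM in AnkGKO and 43.6 to 50.8 CPM in DKO. All 3 NFKO libraries lay below all 3 control libraries, by a narrow margin, and the other genotypes overlapped with control.

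Divided by the length of the merged exons, the levels ran over 3 orders of magnitude. Spag9, which encodes a scaffold for microtubule motors and not a cilium protein, came first at 43.2 CPM per kb, followed by Spag7 at 25.7, Foxj1 at 14.2 and Tekt5, a tektin, at 11.7 CPM per kb. Among proteins of the axoneme after Tekt5, Rsph1 of the radial spoke head was at 1.71 CPM per kb, the outer arm intermediate chain Dnaic1 at 0.93 and Dnali1, a light intermediate chain of inner arms, at 0.882 CPM per kb. The dynein heavy chains lay lower, from 0.437 CPM per kb for the inner arm chain Dnahc1 to 0.0281 for Dnahc17, an outer arm chain best known from sperm. Levels of neighbours in this order differed by less than their range over libraries for most of the middle of the list, from Dnaic1 to Rsph9. Spag6 has no length here because its symbol names more than 1 locus.

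**Figure D1:**
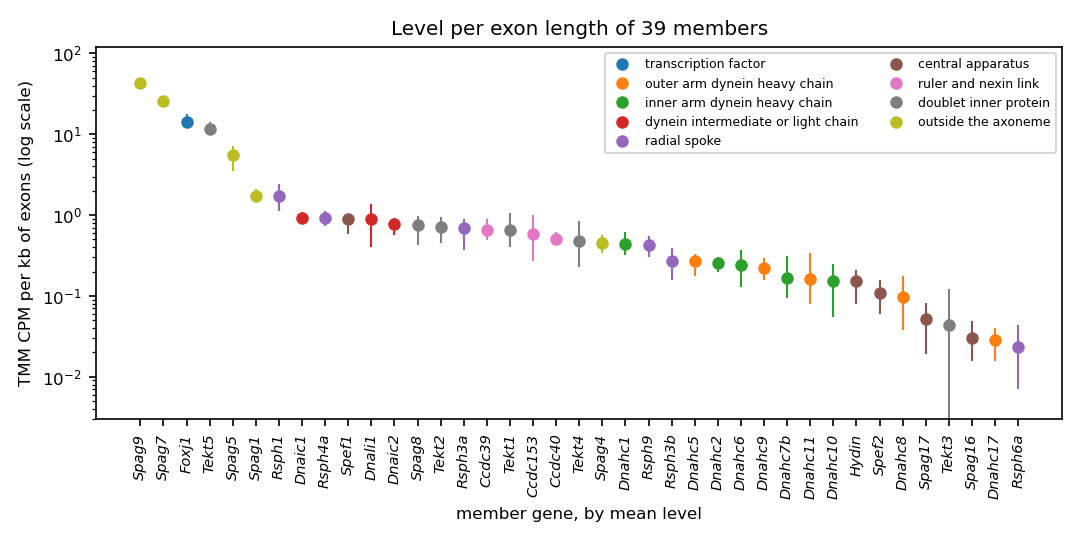
Mean level of 39 members in TMM CPM per kb of merged exons on a log scale, with a line from the lowest to the highest of 11 libraries and colours for roles. Spag9 and Spag7 stand at the top, Foxj1 and Tekt5 follow, and the dynein heavy chains lie in the lower part; the line of Tekt3 leaves the axis because it was at 0 counts in control replicate 1.

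Replicates spread more widely than counting error. Over the members the coefficient of variation among the 3 control libraries had a median of 12.1% and ran from 0.69% to 133%, beside a median counting error of 8.42% per library, and 16 members varied by less than 10%. The widest relative spread was that of Tekt3, at 0, 6 and 1 counts in the control libraries.

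The comparison of DKO with control asked whether loss of both proteins moved these genes, and DKO was the genotype in which most of them were low. The DKO mean was the lowest of the 4 genotype means for 21 of 40 members (52.5%), against 29.0% of all genes, and 31 members had a negative log2 fold change against control (77.5%, against 50.2% of all genes). The median log2 fold change of the members was -0.22, while that of all genes was -0.00064. No member passed the test that asked for an adjusted p under 0.05 with a log2 fold change of 0.6 or more in either direction, with edgeR's quasi-likelihood test and Benjamini-Hochberg adjustment, and only 4 of all genes (0.0228%) did. At an unadjusted p under 0.05 there were 11 members, all lower in DKO, whereas 7.77% of all genes reached that level in either direction and 3.74% reached it as lower genes. DESeq2 with a local dispersion fit called 3 members, Dnahc11, Dnahc5 and Dnahc6, and 44 of all 17557 genes (0.251%). Without DKO replicate 1 the 11 members became 6, and without DKO replicate 3 the median was -0.33. Markers of cerebellar neurons were lower in DKO as well, 9 of 9 Purkinje cell genes (summed 297 to 377 CPM, against 333 to 1455 CPM in control) and 8 of 8 granule cell genes (119 to 158 CPM, against 134 to 797 CPM). The highest control sums were those of replicate 1. The same 9 and 8 genes were lower in AnkGKO, with medians of -1.07 and -2.09 beside -1.11 and -2.10 in DKO. The members had a median of -0.02 in AnkGKO. The part of these cells in the cilium genes was not tested.

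**Figure D2:**
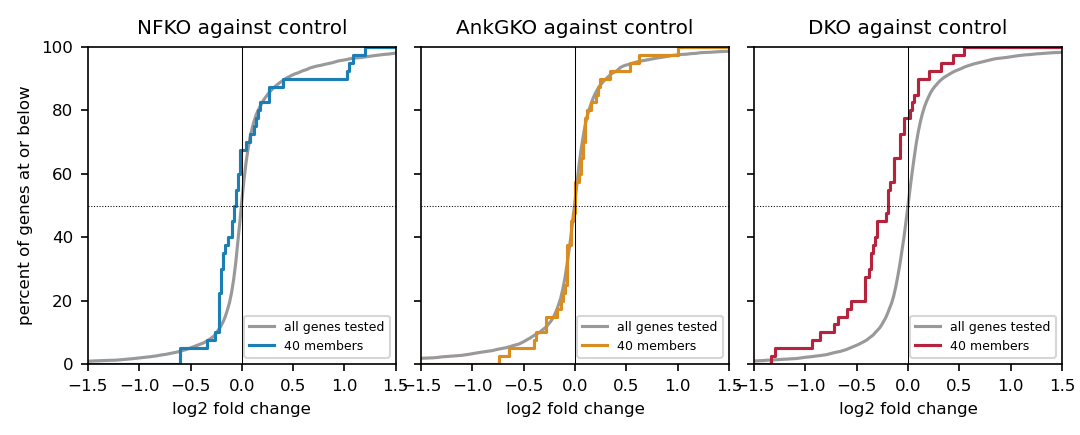
Percent of genes at or below each log2 fold change, for the 40 members (coloured steps) and all 17557 genes tested (grey), in each knockout against control. In DKO the curve of the members crosses 50% at -0.22, to the left of the grey curve, and in AnkGKO it runs along the grey curve. In NFKO 30% of the members and 12.3% of all genes lie at or below -0.2.

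The outer arm heavy chains are the motors that set beat frequency. Dnahc5, the gene most often mutated in primary ciliary dyskinesia, was at 3.87, 4.73 and 4.86 CPM in control, 4.78, 4.99 and 4.72 CPM in NFKO, 4.31 and 4.996 CPM in AnkGKO, and 2.87, 2.80 and 3.11 CPM in DKO. Every DKO library lay below every other library. The log2 fold change of DKO against control was -0.62 (standard error 0.14), with an unadjusted p of 0.000765 and an adjusted p of 0.427 in edgeR. Dnahc11, its partner in the proximal part of the cilium, was at 4.81, 3.50 and 2.07 CPM in control against 1.21, 1.17 and 1.69 CPM in DKO. In NFKO it was at 3.31, 2.10 and 1.41 CPM (log2 fold change -0.60, standard error 0.35). In AnkGKO it was at 2.56 and 1.87 CPM (log2 fold change -0.64, standard error 0.39). The DKO libraries lay below the control libraries, but the control libraries themselves differed more than 2-fold, and NFKO replicate 3 lay within the DKO range. The log2 fold change of DKO against control was -1.34 (standard error 0.36, edgeR adjusted p = 0.528). Dnahc9, the partner of the distal cilium, was at 4.03, 5.74 and 5.29 CPM in control against 4.15, 3.27 and 4.49 CPM in DKO, which overlap. Of the 5 outer arm heavy chains, 4 were lower and 2 had an unadjusted p under 0.05.

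All 5 inner arm heavy chains measured were lower in DKO than in control, and 2 had an unadjusted p under 0.05. Dnahc6 was at 5.69, 4.91 and 3.33 CPM in control, 5.15, 3.83 and 3.29 CPM in NFKO, 4.79 and 4.24 CPM in AnkGKO, and 2.47, 2.13 and 2.64 CPM in DKO. Its DKO libraries stood below all 8 others, and the log2 fold change was -0.94 (standard error 0.22, edgeR adjusted p = 0.438). Dnahc10 was at 2.47, 3.93 and 2.14 CPM in control against 0.933, 1.94 and 1.82 CPM in DKO, a log2 fold change of -0.86 (standard error 0.30, edgeR adjusted p = 0.602). Dnahc1 and Dnahc2, the inner arm chains with the highest level per kb, overlapped between the groups at 4.94, 7.91 and 5.69 against 4.34, 4.60 and 5.95 CPM for Dnahc1 and at 3.82, 4.31 and 4.47 against 4.08, 3.67 and 3.57 CPM for Dnahc2. Dnahc7b was alike in control and DKO, at 2.26, 2.42 and 2.24 against 1.94, 2.13 and 2.62 CPM.

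The smaller dynein subunits split. Dnali1 was at 2.83, 2.13 and 1.79 CPM in control against 0.887, 1.45 and 1.69 CPM in DKO, so that the groups did not overlap but came within 0.1 CPM of each other (log2 fold change -0.74, standard error 0.27, edgeR adjusted p = 0.608). Dnaic1 was among the steadiest members, at 4.86, 5.09 and 4.76 CPM in control against 5.16, 5.16 and 4.93 CPM in DKO.

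In the central apparatus, the pair of single microtubules and their projections at the core of the axoneme, all 6 members were lower in DKO and 4 had an unadjusted p under 0.05. Spag17, a projection protein, was at 0.52, 0.604 and 0.476 CPM in control, 0.689, 0.616 and 0.502 CPM in NFKO, 0.743 and 0.50 CPM in AnkGKO, and 0.21, 0.257 and 0.182 CPM in DKO. The 3 DKO libraries were the lowest of the 11, at 9, 11 and 10 counts, and the log2 fold change against control was -1.30 (standard error 0.32, edgeR adjusted p = 0.479). Of its exon bases 14.9% lie in other genes, mainly Wdr3. Hydin, a giant projection protein, was at 3.72, 2.92 and 3.29 CPM in control against 2.31, 1.49 and 2.37 CPM in DKO (log2 fold change -0.68, standard error 0.20, edgeR adjusted p = 0.562). Spef1, a microtubule-bundling protein of the apparatus, was at 7.49, 7.59 and 7.55 CPM in control against 4.62, 7.22 and 5.57 CPM in DKO, but 79.2% of its exon bases lie in other genes, mainly Cenpb, and the counts of the 2 genes may not be separable. Spag6, whose log2 fold change was -0.42 (standard error 0.17, edgeR adjusted p = 0.619), overlapped between DKO and control in single libraries.

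Radial spokes showed no common direction. Of 6 members 4 were lower and 2 higher in DKO, with none at an unadjusted p under 0.05. Rsph1 was at 2.91, 2.58 and 2.45 CPM in control against 1.77, 2.59 and 2.38 CPM in DKO, and Rsph4a, another spoke head protein, at 3.77, 3.89 and 3.83 against 3.76, 3.08 and 3.06 CPM. Ccdc39 and Ccdc40 form the molecular ruler that spaces the arms along the doublet. Ccdc39 was at 7.36, 9.24 and 7.26 CPM in control against 5.88, 6.75 and 6.12 CPM in DKO, a log2 fold change of -0.35 (standard error 0.16, edgeR adjusted p = 0.639), and Ccdc40 at 2.99, 3.66 and 3.24 against 2.78, 2.80 and 2.93 CPM. Both had DKO libraries entirely below control, Ccdc40 without an unadjusted p under 0.05. Of the exon bases of Ccdc39 28.2% lie in other genes, mainly Ttc14.

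Among the doublet inner proteins, filaments and particles inside the microtubule wall, 4 of 6 were lower and none had an unadjusted p under 0.05. Tekt5 was at 20.4, 21.2 and 24.7 CPM in control against 21.7, 18.4 and 21.9 CPM in DKO, and Spag8 at 1.17, 1.41 and 1.38 against 1.21, 1.24 and 1.00 CPM. The groups overlapped for each of the genes.

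The 5 members that act outside the axoneme belong to the same symbol families, and 4 of the 5 were lower in DKO (80%). Spag9 was at 665, 650 and 676 CPM in control against 674, 581 and 676 CPM in DKO, and Spag7 at 42.5, 40.2 and 38.2 against 40.1, 41.8 and 41.9 CPM. Spag1, a factor that assembles dynein arms in the cytoplasm, was at 23.5, 19.7 and 21.4 against 19.6, 18.6 and 20.4 CPM, and Spag4, a protein of the nuclear envelope known from spermatids, at 3.22, 3.10 and 2.74 against 2.29, 3.04 and 3.24 CPM. All 4 overlapped. Spag5, which encodes the mitotic spindle protein astrin, did not: it was at 29.6, 32.3 and 35.3 CPM in control, 35.6, 34.1 and 38.96 CPM in NFKO, 29.0 and 31.2 CPM in AnkGKO and 20.3, 26.2 and 28.9 CPM in DKO (log2 fold change of DKO against control -0.37, standard error 0.12, edgeR adjusted p = 0.588). The median log2 fold change of the 5 was -0.08. Without these 5, 27 of 35 members were lower in DKO (77.1%), with a median of -0.23.

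**Figure D3:**
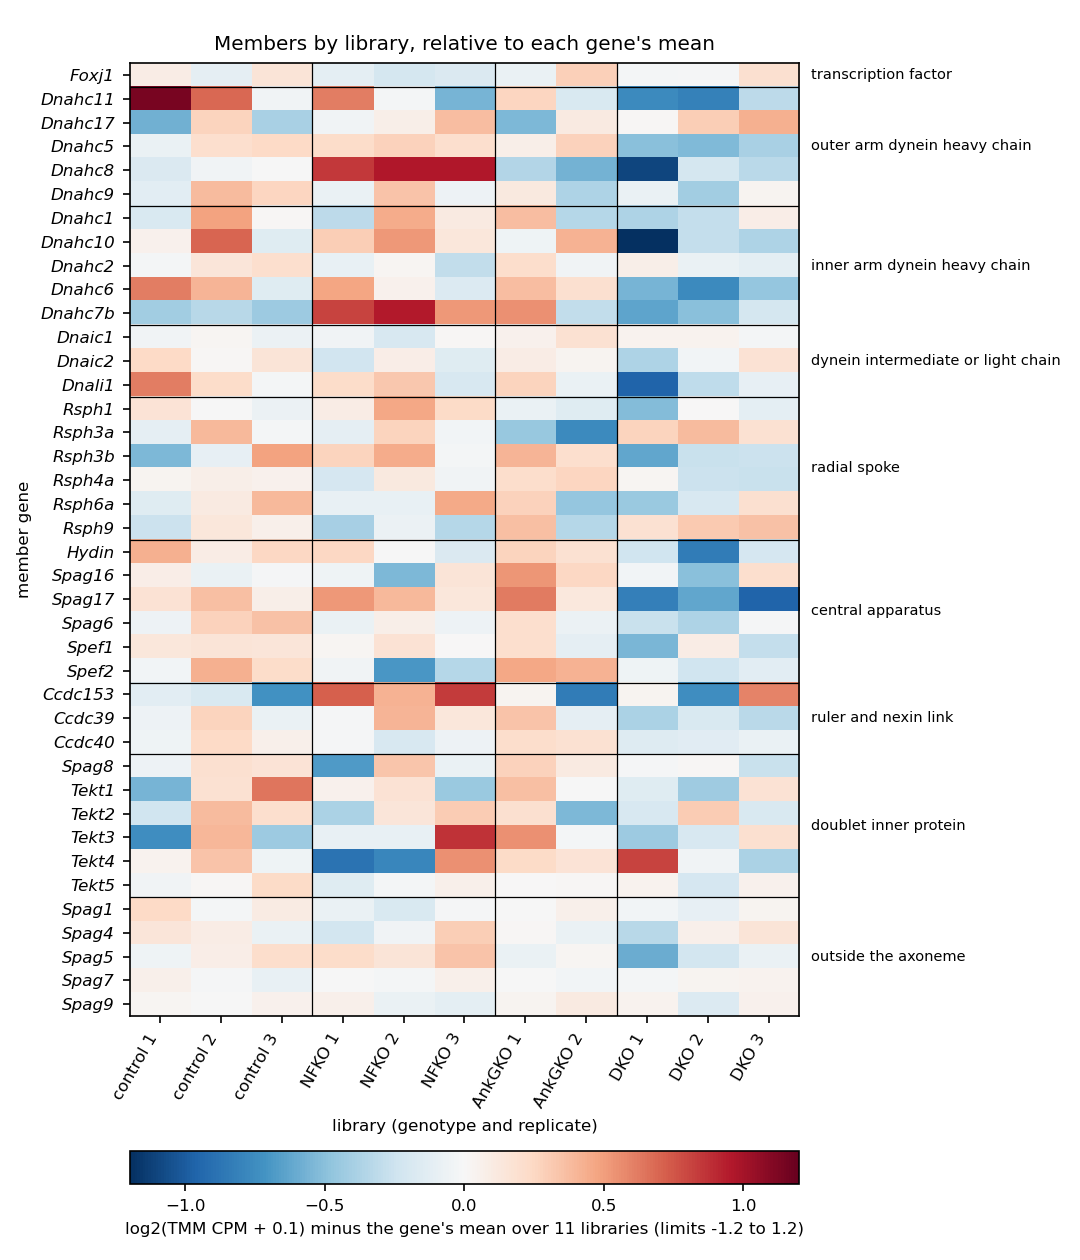
Each member (row, grouped by role) in each library (column), as log2(TMM CPM + 0.1) minus the mean of that gene over 11 libraries; red is higher and blue lower. DKO replicates 1 and 2 have the fewest members above their own mean, 10 of 40 each, and Dnahc7b and Dnahc8 are red in all 3 NFKO libraries.

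Libraries of DKO did not contribute equally. On the scale of log2(CPM + 0.1), the median deviation of the members from their own means was -0.21, -0.20 and -0.08 in DKO replicates 1, 2 and 3, and between -0.04 and 0.21 in the other 8 libraries. DKO replicate 1 held the lowest value of all libraries for 12 members, replicate 2 for 8 and replicate 3 for 2. In 14 members all DKO libraries lay below all control libraries and in 1, Rsph9, all lay above, while 6.80% of all genes did not overlap in the lower direction and 14.4% in either. The 34 axoneme proteins among the members summed to 94.2, 94.9 and 103 CPM in DKO, 112, 124 and 116 CPM in control, 112, 124 and 114 CPM in NFKO and 123 and 106 CPM in AnkGKO. This sum was lower in each DKO library than in each of the other 8, and it weights abundant genes most.

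Ependymal markers that are not cilium genes went both ways in DKO. Of the 12 measured among 14 listed, 8 were higher and 4 lower than in control, with log2 fold changes of -0.35 to 0.62, a median of 0.11 and 1 gene, higher in DKO, at an unadjusted p under 0.05. They summed to 1771 to 2008 CPM in DKO and to 1673 to 1763 CPM in control, of which S100b, which astrocytes also express, made up 699 to 948 CPM over all libraries. Cd24a, a surface protein of ependymal cells and of young neurons, was at 88.9, 130 and 71.3 CPM in DKO and at 58.8, 49.1 and 80.6 CPM in control. Rarres2 went the other way, at 4.64, 7.43 and 4.86 CPM in DKO and at 6.65, 8.68 and 6.19 CPM in control. Calml4 was also lower by mean, at 0.930 CPM in DKO and 1.16 CPM in control. The libraries of DKO and control overlapped for each of these genes. Of the markers of choroid plexus, the other ciliated epithelium near the cerebellum, Ttr and Folr1 were low. Ttr lay between 0.223 and 6.29 CPM and Folr1 between 0.214 and 0.52 CPM over all libraries. Kl, another gene of that list, lay between 3.12 and 9.57 CPM. The list of 15 choroid plexus genes summed to 631 to 874 CPM in DKO and 838 to 869.5 CPM in control, of which Enpp2, also a gene of oligodendrocytes, made up 600 to 845 CPM over all libraries. Meningeal fibroblast genes summed to 116 to 428 CPM in DKO and 162 to 508 CPM in control, and genes of Schwann cells to 188 to 413 CPM and 228 to 402 CPM, which overlap.

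Other lists of the same biology were set beside the members. They were chosen with results of these data known and are described by counts and medians only. Of 53 other proteins of motile cilia, 47 were measured outside the members. In DKO 35 of these were lower (74.5%, against 50.2% of all genes), with a median log2 fold change of -0.27. At an unadjusted p under 0.05, 10 were lower and 1 higher, and none was called. The 1 higher gene, Tppp3, a tubulin-binding protein that also had the highest CPM of the list, 232 to 465, is not restricted to cilia. Regulators of ciliogenesis had a median of -0.17 over 9 genes, with 2 lower at an unadjusted p under 0.05, and the 4 measured dynein assembly factors, 2 higher and 2 lower, ran from -0.59 to 0.29. In NFKO 37 of the 47 were lower (78.7%, against 51.7% of all genes), with a median of -0.09. At an unadjusted p under 0.05, 6 were lower and none higher, beside 565 lower of all 17557 genes. In AnkGKO 24 of the 47 were lower and 0 were at that level, with a median of -0.01.

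Genes of the primary cilium, which most cells carry, differed from control by smaller amounts, a contrast between lists that was not tested. The 32 measured genes of the primary cilium and of intraflagellar transport, led by Kifap3 at 321 to 365 CPM, had a median of -0.04 in DKO, with 23 of 32 lower (71.9%, beside 77.5% of the members), and 1 lower and none higher at an unadjusted p under 0.05. The 19 subunits and partners of cytoplasmic dynein, led by the heavy chain Dync1h1 at 1092 to 1470 CPM, had a median of 0.07, with 18 of 19 higher and 2 at an unadjusted p under 0.05. No gene of these lists was called in any of the knockouts against control, by edgeR or by DESeq2.

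The comparison of NFKO with control asked what loss of NF186 alone did. Most members stayed near control, with a median log2 fold change of -0.08, while that of all genes was -0.005. The lower members were 27 of 40 (67.5%, against 51.7% of all genes), and the members that differed most were higher. One member passed the test, Dnahc7b, among 64 of all genes (0.365%). At an unadjusted p under 0.05 there were 5 members, 3 higher and 2 lower, and 7.69% of all genes reached that level. DESeq2 called 2 members, Dnahc7b and Dnahc8, and 159 of all genes (0.906%).

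Markers of other tissues were higher in NFKO. All 11 meningeal fibroblast genes were higher than in control (median log2 fold change 1.26, 1 at an unadjusted p under 0.05), and they summed to 570, 1696 and 657 CPM in NFKO against 162, 508 and 319 CPM in control. All 6 genes of Schwann cells and peripheral nerve were higher too (median 1.38, 2 at an unadjusted p under 0.05), at 582, 560 and 614 CPM against 228, 279 and 402 CPM in sum. For both lists every NFKO library lay above every control library, as it did for Dnahc7b, Dnahc8 and Ccdc153 below. All 11 skeletal muscle genes were higher too (median 1.86, 0 at an unadjusted p under 0.05). Their sums overlapped, at 92.9, 515 and 6.28 CPM in NFKO against 41.0, 77.7 and 39.4 CPM in control. No gene of these lists was called, and the part of these tissues in the values of the members was not tested.

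Dnahc7b, an inner arm heavy chain, was at 2.26, 2.42 and 2.24 CPM in the control mice and rose to 5.45, 5.99 and 4.44 CPM in NFKO. The lowest NFKO library lay above the highest control library by a wide margin, and the gene rose 2.29-fold (log2 fold change 1.198, standard error 0.22, edgeR adjusted p = 0.0395). AnkGKO stood between, with 4.52 CPM in replicate 1 and 2.48 CPM in replicate 2, and DKO was at the control level. On GRCm39 the gene spans chr1:46105475-46412710 on the plus strand. Of its words of 50 bases 29.99% also occur in another gene, mainly Dnah7c, so reads from the 2 copies may not be fully separable. Dnah7c was not analysed here. The call was lost when any 1 of the 6 control or NFKO libraries, or DKO replicate 2 or 3, was left out, with a log2 fold change of 1.10 to 1.31. It was lost too with the replicate number as a block (edgeR adjusted p = 0.0907) and with Xist, a marker of female cells, as a covariate (edgeR adjusted p = 0.266).

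Dnahc8, an outer arm heavy chain best known from sperm, moved in the same libraries. It was at 2.08, 2.30 and 2.36 CPM in control, 4.34, 4.70 and 4.70 CPM in NFKO, 1.84 and 1.56 CPM in AnkGKO and 1.05, 2.03 and 1.87 CPM in DKO. The NFKO libraries were nearly identical and stood above all others. Its log2 fold change of 1.03 (standard error 0.22) had an adjusted p of 0.0746 in edgeR and of 0.000154 in DESeq2.

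Dnahc8 lies at chr17:30843328-31096339 on the plus strand, and its first 2518 bases overlap the start of Glo1, which is read from the minus strand and encodes the enzyme glyoxalase 1. Glo1, named here because it overlaps Dnahc8 and after its values were seen, was at 75.3, 67.6 and 73.3 CPM in control, 150, 137 and 155 CPM in NFKO, 73.1 and 72.5 CPM in AnkGKO and 73.3, 77.7 and 77.4 CPM in DKO. It rose in NFKO by 1.03 on the log2 scale (standard error 0.07, edgeR adjusted p = 2e-05), close to the difference of Dnahc8. Of the exon bases of Dnahc8 3.43% lie in other genes, and without the strand setting of the counts reads from the shared stretch cannot be told apart. Of 21 other genes tested within 1 Mb of Dnahc8 it was the only one called. The member Rsph1 lies in the same window, at a log2 fold change of 0.24 (standard error 0.18). Whether the locus itself differs between the mice was not tested.

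Ccdc153, a subunit of the nexin link complex, was at 0.988, 0.946 and 0.619 CPM in the control libraries, beside 1.86, 1.48 and 2.03 CPM in NFKO. The groups did not overlap, but DKO spread over the whole range, at 1.12, 0.607 and 1.69 CPM. The log2 fold change in NFKO was 1.07 (standard error 0.37, edgeR adjusted p = 0.457). Spef2, a protein of the central apparatus, was lower in NFKO at 1.03, 0.616 and 0.818 CPM against 1.04, 1.47 and 1.26 CPM (log2 fold change -0.61, standard error 0.24, edgeR adjusted p = 0.54). Spag1 was lower by a small amount (log2 fold change -0.20, standard error 0.09, edgeR adjusted p = 0.611). In all 5 members did not overlap between NFKO and control, 3 higher and 2 lower, while 13.9% of all genes did not.

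**Figure D4:**
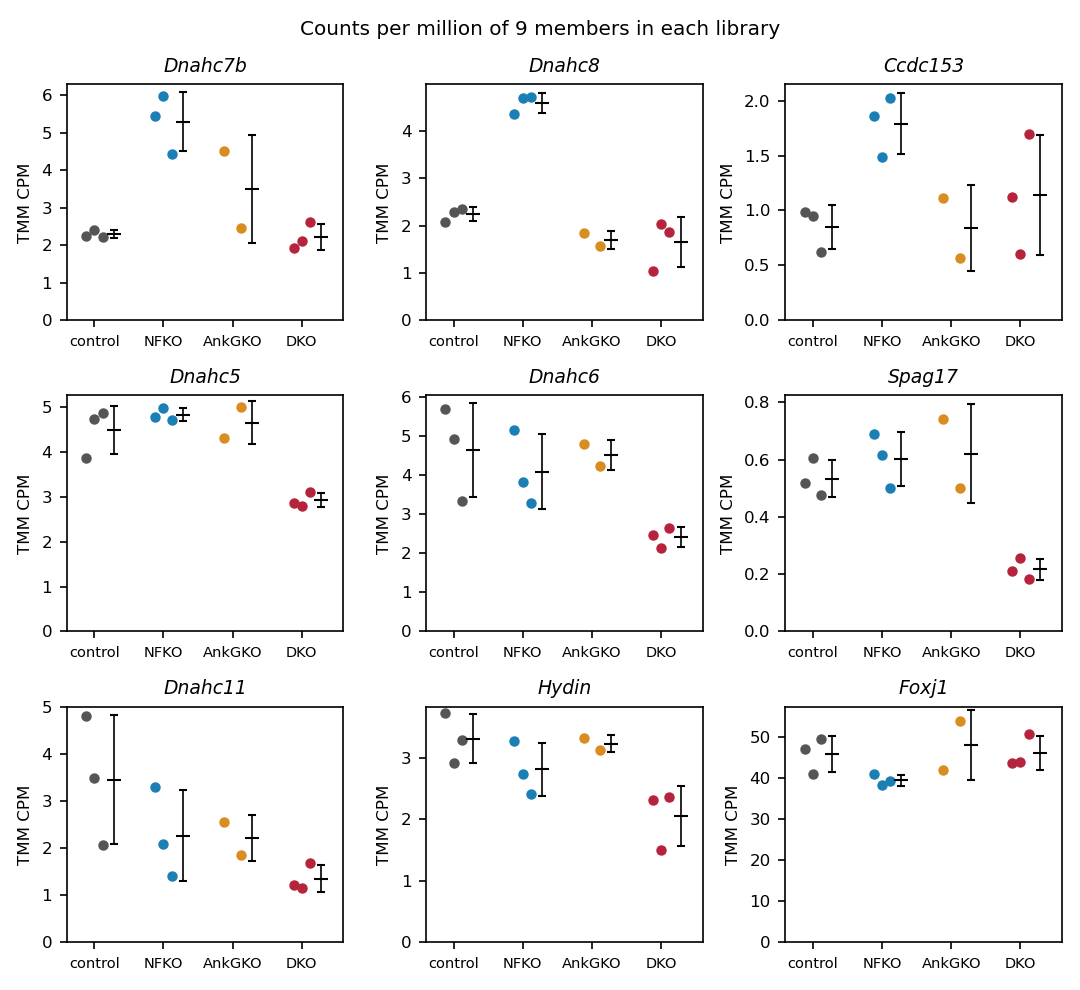
TMM CPM of 9 members in each library (points, by genotype), with the mean and SD of each genotype to the right of its points (n = 3, 3, 2 and 3); each panel starts at 0. Dnahc7b and Dnahc8 are highest in NFKO, whereas Dnahc5, Dnahc6 and Spag17 have all 3 DKO points below all other points.

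AnkGKO against control, the comparison for loss of AnkG alone, showed the least in the members. No member was called, beside 29 of all genes (0.165%), and DESeq2 called none either, beside 102 of all genes (0.581%). At an unadjusted p under 0.05 there were 2 members of 40, near the 5.39% of all genes. The median log2 fold change was -0.02, with 23 of 40 lower (57.5%, against 51.3% of all genes). Rsph3a, a radial spoke stalk protein, was at 1.98, 2.82 and 2.10 CPM in control against 1.53 and 1.22 CPM in AnkGKO (log2 fold change -0.74, standard error 0.23, edgeR adjusted p = 0.482). Dnahc7b was the other, its log2 fold change of 0.60 (standard error 0.24, edgeR adjusted p = 0.829) resting on replicate 1. Between AnkGKO and control 7 members did not overlap, 4 higher and 3 lower, at a background of 24.0% of all genes. With the replicate block 1 member had an unadjusted p under 0.05. Marker genes differed more: all 9 of Purkinje cells, 8 of granule cells and 11 of skeletal muscle were lower in AnkGKO. Their medians were -1.07, -2.09 and -5.13, with 0 genes at an unadjusted p under 0.05, and their part in the members was not tested.

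Rsph3a has a near copy, Rsph3b, and the pair lies on chromosome 17 at chr17:8164398-8198656 and chr17:7171598-7216144. They share 53.5% and 58.1% of their words of 50 bases with each other. Rsph3b was at 0.702, 0.987 and 1.52 CPM in control, 1.44 and 1.24 CPM in AnkGKO and 0.653, 0.864 and 0.874 CPM in DKO. The 2 genes thus stood in opposite order, Rsph3a lower and Rsph3b higher in AnkGKO than in DKO. Summed, they were at 2.68, 3.81 and 3.62 CPM in control, 3.27, 4.06 and 3.12 CPM in NFKO, 2.97 and 2.45 CPM in AnkGKO and 3.24, 3.67 and 3.31 CPM in DKO. The 2 AnkGKO sums overlapped with control and lay below DKO, and how reads were divided between the copies was not tested.

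**Figure D5:**
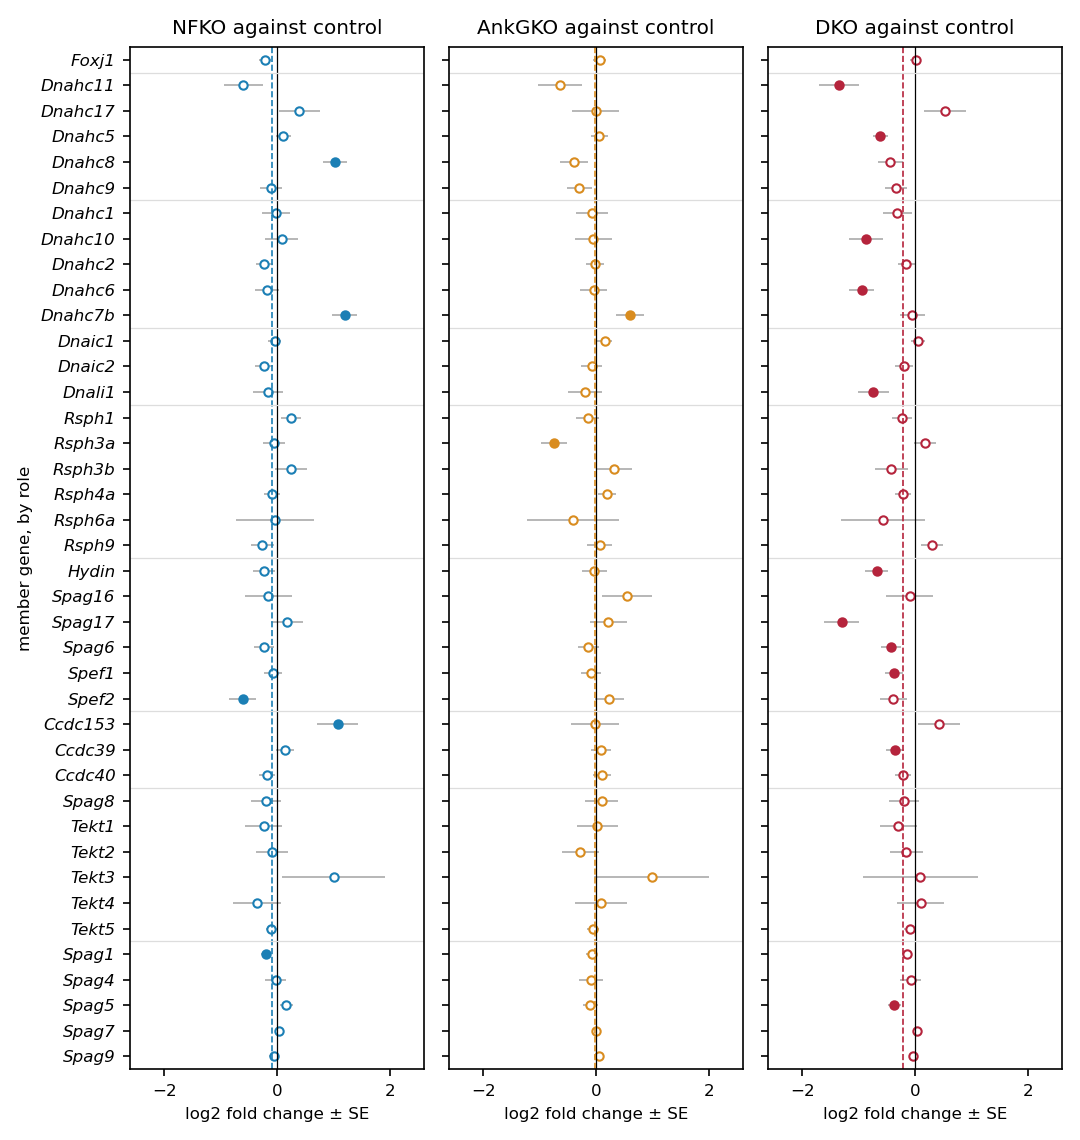
Log2 fold change with its standard error for each of the 40 members in NFKO, AnkGKO and DKO against the same 3 control libraries, ordered by role; filled points have an unadjusted p under 0.05 and the dashed line is the median of the members. Medians were -0.08, -0.02 and -0.22.

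DKO was then compared with each single knockout, to see what the second deletion added. Against NFKO 3 members passed the test, all lower in DKO and all dynein heavy chains, while 108 of all genes (0.615%) did. At an unadjusted p under 0.05 there were 12 members, 11 of them lower, whereas 16.2% of all genes reached that level and 8.29% reached it as lower genes. Dnahc8 fell by 1.47 on the log2 scale (standard error 0.22, edgeR adjusted p = 0.00869), Dnahc7b fell by 1.25 (standard error 0.22, edgeR adjusted p = 0.0237) and Dnahc5 fell by 0.72 (standard error 0.14, edgeR adjusted p = 0.0336). For Dnahc8 and Dnahc7b it was NFKO that stood apart from control, and for Dnahc5 it was DKO, as the library values above show. Spag17 missed the threshold, at -1.47 (standard error 0.31, edgeR adjusted p = 0.0529). The median over members was -0.16. DESeq2 called 6 members, these 4 with Dnahc6 and Dnahc10, and 418 of all genes (2.38%).

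Markers of other cells were lower in DKO than in NFKO as well. All 11 meningeal fibroblast genes were lower (median log2 fold change -1.63), as were all 6 of Schwann cells (median -1.14), and for both lists the DKO sums lay below the NFKO sums, at 116 to 428 against 570 to 1696 CPM and at 188 to 413 against 560 to 614 CPM. All 11 skeletal muscle genes, 9 of 9 Purkinje cell genes and 8 of 8 granule cell genes were lower as well, with sums that overlapped between the groups. None of these genes was called, and their part in the 3 calls was not tested.

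Of the 3 calls, that of Dnahc8 held in each fit that left out a single library. That of Dnahc5 was lost without any 1 of the 6 libraries compared and without control replicate 2 or 3, with log2 fold changes of -0.77 to -0.69. That of Dnahc7b was lost without NFKO replicate 1 or 2 or DKO replicate 1. With the replicate block 1 call remained, that of Dnahc8, and with the Xist covariate none did.

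Against AnkGKO no member was called by edgeR, beside 30 of all genes (0.171%), whereas 11 members had an unadjusted p under 0.05, 10 of them lower in DKO. Of all genes 8.48% reached that level and 4.47% reached it as lower genes. DESeq2 called 4 members, Spag17, Dnahc5, Dnahc6 and Rsph3a, and 99 of all genes (0.564%). The log2 fold changes were -1.52 for Spag17 (standard error 0.34, edgeR adjusted p = 0.188), -0.67 for Dnahc5 (standard error 0.15, edgeR adjusted p = 0.196), -0.90 for Dnahc6 (standard error 0.24, edgeR adjusted p = 0.337) and 0.93 for Rsph3a (standard error 0.23, edgeR adjusted p = 0.259). The median was -0.25, with 32 of 40 members lower (80.0%, against 49.2% of all genes), and it was -0.13 without AnkGKO replicate 1 and -0.37 without replicate 2. The comparisons of DKO with control, NFKO and AnkGKO share the DKO libraries and do not count as separate observations of them.

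The interaction of the knockouts compares the effect of both deletions with the sum of the single effects. One member was called, Dnahc7b, beside 93 of all genes (0.530%). Its interaction was -1.85 on the log2 scale (standard error 0.33, edgeR adjusted p = 0.0269), since it was higher in both single knockouts than in control and not in DKO. The next smallest p-values were those of Dnahc5 at -0.77 (standard error 0.20, edgeR adjusted p = 0.17) and of Spag17 at -1.69 (standard error 0.45, edgeR adjusted p = 0.171). DESeq2 called 3 members, Dnahc7b, Dnahc5 and Dnahc8, and 318 of all genes (1.81%). With the replicate block no interaction was called (edgeR adjusted p = 0.0932 for Dnahc7b). The median over the members was -0.11.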

How the data were processed

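Polyadenylated RNA of 11 libraries was sequenced, 3 control, 3 NFKO, 2 AnkGKO and 3 DKO, grouped by their labels. The authors deposited raw read counts per gene, unnormalized, for 22609 genes. Their processing notes name GRCm39 and the tools FastQC 0.12.1, Trimmomatic 0.39, STAR 2.7.11a and DESeq2 1.40.2; their methods give strand-specific libraries (NEBNext Ultra II Directional) counted per gene by the quantMode option of STAR, whereas the summary lines of the table are named as htseq-count names them, and the strand setting is not given in the sources used here. A table of counts scaled by size factor was not used. The 5 summary lines made up 42.7 to 43.8% of all lines, mostly alignments that were not unique (32.5 to 34.3%), so members with near copies lose reads.

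Genes with at least 10 counts in total were fitted with edgeR 4.0.16 in R 4.3.3 (TMM, robust quasi-likelihood, 1 fit over 4 genotypes, Benjamini-Hochberg adjustment over 17557 genes). Calls took an adjusted p under 0.05 with a log2 fold change of 0.6 or more in either direction. CPM are TMM-normalized. Alternatives were DESeq2 1.42.0 and the settings given at the end. Fits were tested on simulated data. The members and lists were chosen with earlier results of these data known. Named are the 6 genes listed by symbol, the 2 members of each role with the highest CPM per kb, called members, up to 3 members per comparison with the smallest p and no overlap of libraries, and members with a role outside the axoneme. Other members were named after their values were seen. Positions came from GENCODE vM39 on GRCm39, where 27 members matched by symbol and 12 by synonym, and promoters from RefSeq (GRCm38.p6). Deviations from the group mean correlated between control and NFKO libraries of the same number (r = 0.363, 0.306 and 0.175 over genes), which no label explains. P-values measure the spread between mice within genotypes, and intervals of counting error are not included.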

Additional observations from a re-analysis of the deposited data

Results flagged for a closer look

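Dnahc7b was marked because the effect of 1 knockout depended on the other: the interaction was -1.85 on the log2 scale (standard error 0.33, adjusted p = 0.0269 in edgeR). Its counts were 87, 120 and 94 in control, 285, 311 and 239 in NFKO, 219 and 114 in AnkGKO and 83, 91 and 144 in DKO. Without AnkGKO replicate 1 the interaction was -1.35. Over 19 alternatives it ran from -2.22 to -1.35, and the call held in 7 of them. Of the gene's words of 50 bases 29.99% occur in another gene.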

How the results depend on the processing

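Over 20 alternatives per comparison (19 for the interaction), 240 counts and medians over the members changed by less than 1.5 times or by less than the spread between libraries, 58 changed by more. Fold changes were recomputed for 33 pairs of a member and a comparison, over 17 members, and none of these changed direction. For NFKO against control, DESeq2 and the fit of only the libraries compared called 2 members, and the replicate block, Xist as a covariate, and the fits without the 2 libraries richest in cerebellar neuron or in muscle genes called 0; the count at an unadjusted p under 0.05 was 3 with the Xist covariate and 3 without the muscle-rich libraries. For AnkGKO against control that count was 1 with only the libraries compared, 1 with the replicate block, 1 without the libraries rich in cerebellar neuron genes and 0 with the Xist covariate. For DKO against control DESeq2 called 3. For DKO against NFKO the calls were 6 with DESeq2, 1 with the replicate block, 0 with the Xist covariate and 1 without either pair of libraries, and the median was -0.068 without the muscle-rich pair. DESeq2 called 4 members for DKO against AnkGKO and 3 for the interaction, where the replicate block, the Xist covariate and the fits without either pair called 0 and the Xist covariate gave a median of -0.20. The replicate block changed no other call. The cause of these changes was not tested.

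Leaving out 1 library at a time gave 0 to 2 calls for NFKO against control, 1 to 3 for DKO against NFKO, 0 to 1 for the interaction, and 0 to 0 for the other comparisons. Counts at an unadjusted p under 0.05 ran from 3 to 6 in NFKO, 1 to 3 in AnkGKO and 6 to 11 in DKO against control. Medians ran from -0.13 to -0.02 for NFKO, -0.09 to 0.05 for AnkGKO and -0.33 to -0.20 for DKO against control, from -0.26 to -0.087 for DKO against NFKO, from -0.37 to -0.13 for DKO against AnkGKO and from -0.29 to -0.048 for the interaction. With 1 AnkGKO library left, it is assumed to vary like the other groups. The fits without 2 libraries were chosen after seeing the data. Counts of 0 to 36 per library for Tekt3, Rsph6a, Spag16 and Spag17 limit what can be seen of these genes.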
